A study of Mus musculus with 10 samples.

Results

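Glutathione S-transferases join the tripeptide glutathione to reactive, electrophilic compounds and so make them soluble and fit for export. Here 10 mouse genes of this activity were followed in lung tumours: Gstk1 of the mitochondrial and peroxisomal kappa class, Gsta3, Gsta4, Gstm1, Gstm2, Gstm5, Gsto1, Gstp1 and Gstt1 of the cytosolic classes, and Mgst1, a membrane-bound enzyme of the MAPEG family. They were taken from the count table by symbol, as 10 of its 39017 genes, and each symbol had 1 row. The genes were chosen by their known class and selected on earlier values of the log2 fold change between the groups, in which Gstk1 led these 10, so differences between the groups are a description for these genes. Which of them a test called in that contrast is part of this description and supports nothing further.

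Libraries were made from lung tumours of C57BL/6 mice. All mice carried K-rasLSL-G12D/WT, an allele that makes mutant K-ras once Cre recombinase has cut out a stop cassette, and p53Fl/Fl, floxed alleles that Cre deletes. These KP mice formed the Control group, with 5 libraries. KPG1 mice, with 5 libraries labelled Glut1-KO, had Glut1Fl/Fl in addition, floxed copies of Slc2a1, which encodes the glucose transporter Glut1. The genotype label of the controls reads heterozygous fl/wt, while the text on the design calls them Glut1-WT, and according to the methods of the study either kind of mouse could serve as a control. Cre was brought into the airways by the adenovirus Ad5CC10-Cre, whose promoter is active in cells that make CC10, the product of Scgb1a1 and a marker of club cells, so deletion was aimed at CC10-positive cells and those that arise from them. Which cells of these tumours recombined was not measured here. Tumours were macrodissected 20 weeks and 1 day after initiation, dissociated and depleted of CD45-positive immune cells on beads, and polyadenylated RNA of the CD45- fraction was sequenced. The 5 controls were male. Among the Glut1-KO libraries, replicates 1 to 3 were female and replicates 4 and 5 male, so that sex and genotype were in part confounded. The age of the mice is not given in the sources used here.

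The glutathione S-transferases belong to the second phase of detoxification, after cytochrome P450 and other enzymes have made compounds reactive, and before export pumps remove the conjugates. Several of their genes are known targets of NRF2, a transcription factor that binds the antioxidant response element. In the lung, club cells of the bronchioles are known for a high content of P450 and glutathione-conjugating enzymes.

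Total counts ran from 35.3 to 49.8 M per library (M, mega), and the 10 genes had between 194 and 81160 counts in any library. Levels are TMM-scaled counts per M (CPM), and errors are SDs within a group. Slc2a1 was at 118, 86.7, 92.6, 103 and 73.2 CPM in control replicates 1 to 5 and at 60.3, 42.5, 34.6, 92.4 and 103 CPM in Glut1-KO replicates 1 to 5. Female replicates 1 to 3 lay under every control, and male replicates 4 and 5 lay within the range of the controls, so the targeted gene did not set these 2 libraries apart and the name Glut1-KO stands for the label. With limma the difference of -0.62 on the log2 scale (SE 0.29) missed the threshold of 0.05 (adjusted p 0.658). The fraction held transcripts of many cell types. Scgb1a1 ranged from 704 to 8732 CPM and Sftpc, the surfactant protein of alveolar type 2 cells, from 6329 to 36607 CPM. The summed level of 13 club cell markers was between 2370 and 12433 CPM in controls and between 3098 and 9286 CPM in Glut1-KO libraries, with 3 of 13 markers higher in Glut1-KO. Leukocyte markers summed to between 315 and 462 CPM in controls and between 338 and 587 CPM in Glut1-KO libraries, with 10 of 12 tested markers higher in Glut1-KO. Their median log2 fold change was 0.77. Endothelial markers were higher in Glut1-KO for 12 of 12 (median log2 fold change 0.58), with sums of 154 to 541 CPM in controls and 256 to 707 CPM in Glut1-KO libraries. Ciliated cell markers were higher for 0 of 9 (median log2 fold change -0.94), with sums of 11.2 to 285 CPM in controls and 15.8 to 61.4 CPM in Glut1-KO libraries. Among the other lists, markers higher in Glut1-KO were 9 of 12 for alveolar type 2 cells, 5 of 10 for alveolar type 1 cells, 3 of 11 for fibroblasts, 1 of 5 for erythroid cells and 2 of 8 for epithelium in general. Their part in the differences between the groups was not tested. No marker of these lists was at 0 in every library and 0 passed the threshold (limma, adjusted p). In such bulk samples, fewer cells of a type and less RNA per cell cannot be told apart. The library names carry a further number, which the 5 controls share among 2 values and Glut1-KO replicates 4 and 5 have in common. Its meaning is not given in the sources used here. If it marked the mouse, the 5 controls would come from 2 mice and the male Glut1-KO pair from 1, and the SDs, SEs and p-values, which treat the libraries as independent, would in part measure the spread within a mouse.

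All 10 genes are annotated as protein-coding (GENCODE M21, GRCm38). Gstk1 (ENSMUSG00000029864) lies at chr6:42245935-42250447 on the plus strand, and Mgst1 (ENSMUSG00000008540) on the same chromosome at chr6:138140316-138156755, also on the plus strand. The mu class lies together on chromosome 3. Gstm1 (ENSMUSG00000058135) is at chr3:108012255-108017973 and Gstm2 (ENSMUSG00000040562) at chr3:107981702-107986453, both on the minus strand, and Gstm5 (ENSMUSG00000004032) at chr3:107895821-107898686 on the plus strand. Gsto1 (ENSMUSG00000025068) at chr19:47854970-47864790 on the plus strand and Gstp1 (ENSMUSG00000060803) at chr19:4035407-4037985 on the minus strand share chromosome 19. Gsta3 (ENSMUSG00000025934) is at chr1:21240589-21265661 and Gsta4 (ENSMUSG00000032348) at chr9:78182774-78209349, both on the plus strand, and Gstt1 (ENSMUSG00000001663) at chr10:75783813-75798584 on the minus strand. Close relatives make some counts uncertain. Of all 85-base windows of the annotated transcripts, the read length used, 27.5% of those of Gstp1 (516 of 1877) also occurred in another gene, mostly Gstp2, as did 9.65% of those of Gstm1 (150 of 1555) and 1.25% of those of Gstm2 (21 of 1680). The other 7 genes shared 0 such windows. Gsto1, Gstm5 and Gsta3 overlap a gene on the opposite strand, and the strand setting of the counting is not given in the sources used here. Cfap43, the partner of Gsto1, had between 0.385 and 14.8 CPM, and 4933431E20Rik, the partner of Gstm5, between 2.84 and 10.1 CPM.

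The 250 bases before the annotated start were read from RefSeq (GRCm38.p6) for the 9 genes with an entry, which leaves Gsta4. Gstm1 and Mgst1 have a second start, which makes 11 entries. Starts are those of RefSeq, and some lie inside the GENCODE gene, by 853 bases for Gstt1, 211 for the first start of Mgst1, 73 for Gstp1 and 33 each for Gstm2 and Gstm5, so that all or part of these windows lies within the gene as annotated there. The second starts of Gstm1 and Mgst1 lie 155 and 1271 bases inside. For Gstk1 and the first start of Gstm1 both annotations share the start. The windows were searched on both strands for the core of the antioxidant response element, written TGACNNNGC, where N is any base. This core was found in 3 of the 11 entries, those of Gsta3, Gstm5 and the first start of Mgst1, and in 10.2% of all 32851 promoters of this length. The entry of the second start of Mgst1 held 0 matches. A direct repeat of the half-site of nuclear receptors such as PPARα, written AGGTCANAGGTCA, was found in 0 of the 11 and in 0.0335% of all promoters. A match is a description of letters in a window and shows no binding. The promoter of Gstk1 is printed as that of the gene with the largest difference between the groups, those of Gsto1, Gstm1 and Gstt1 as those of genes whose levels moved together or against each other across libraries, and those of Mgst1 and Gsta3 for their match, which stands in capitals. Each is given 5′ to 3′ on the strand of its gene, for the first start where there are more.
Gstk1, chr6:42245685-42245934, plus strand: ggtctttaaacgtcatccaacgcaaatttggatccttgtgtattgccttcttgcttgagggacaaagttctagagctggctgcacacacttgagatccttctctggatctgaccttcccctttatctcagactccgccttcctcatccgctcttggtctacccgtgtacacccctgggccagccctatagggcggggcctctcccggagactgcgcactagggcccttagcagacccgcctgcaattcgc
Gsto1, chr19:47854723-47854972, plus strand: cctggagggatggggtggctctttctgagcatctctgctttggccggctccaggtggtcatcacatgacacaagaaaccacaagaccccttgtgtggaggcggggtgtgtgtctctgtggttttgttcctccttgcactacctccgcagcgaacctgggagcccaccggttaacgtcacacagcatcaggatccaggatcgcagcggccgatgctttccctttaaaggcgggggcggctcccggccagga
Gstm1, chr3:108017974-108018223, minus strand: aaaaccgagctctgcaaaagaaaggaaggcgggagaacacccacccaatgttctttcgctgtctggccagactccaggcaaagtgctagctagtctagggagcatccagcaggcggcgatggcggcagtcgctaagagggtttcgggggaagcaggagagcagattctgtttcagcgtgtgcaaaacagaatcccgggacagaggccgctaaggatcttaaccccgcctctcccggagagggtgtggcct
Gstt1, chr10:75797732-75797981, minus strand: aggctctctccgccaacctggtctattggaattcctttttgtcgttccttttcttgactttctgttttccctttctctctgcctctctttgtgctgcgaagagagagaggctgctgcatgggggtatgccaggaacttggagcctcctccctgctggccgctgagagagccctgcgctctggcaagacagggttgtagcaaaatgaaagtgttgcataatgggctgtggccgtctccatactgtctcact
Mgst1, chr6:138140277-138140526, plus strand: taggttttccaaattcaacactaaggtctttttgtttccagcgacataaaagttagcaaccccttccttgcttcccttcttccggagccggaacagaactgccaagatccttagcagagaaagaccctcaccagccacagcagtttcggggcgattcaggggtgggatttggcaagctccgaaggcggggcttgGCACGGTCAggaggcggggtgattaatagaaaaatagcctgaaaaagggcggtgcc
Gsta3, chr1:21240335-21240584, plus strand: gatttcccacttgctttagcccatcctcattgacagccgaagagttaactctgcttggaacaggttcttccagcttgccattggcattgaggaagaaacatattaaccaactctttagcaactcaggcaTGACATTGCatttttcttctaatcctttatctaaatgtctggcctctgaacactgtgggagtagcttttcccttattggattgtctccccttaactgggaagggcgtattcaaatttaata
In Gsta3 the match TGACATTGC began 121 bases and ended 113 bases before the start. In Mgst1 the match TGACCGTGC lay on the opposite strand, from 56 to 48 bases before the start, and so reads as its reverse complement in the printed line. Gstm5 had TGACCACGC from 42 to 34 bases before its start. Guanine and cytosine made up 55.6% of the window of Gstk1, 60.0% of that of Gsto1 and 42.0% of that of Gsta3.

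To see which of these enzymes dominate in the tumours, levels were divided by the length of each gene's exons and are given in CPM per kb. Gsto1, an omega-class enzyme known to reduce dehydroascorbate, had the highest mean, 361 ± 288 CPM per kb (SD, n = 10). Gstm1, a main conjugating enzyme of the mu class, followed at 324 ± 146 CPM per kb and Mgst1 at 299 ± 47.0 CPM per kb. By the median, Gstm1 was first of these with 327 CPM per kb, before Mgst1 with 289 and Gsto1 with 261. The highest level of Gsto1, 1015 CPM per kb, was that of control replicate 1. Gsta4, known for its activity on the lipid peroxidation product hydroxynonenal, stood at 237 ± 112 CPM per kb. Among these 4 genes, neighbours in the order did not differ beyond their spread (2-sided exact paired permutation test over 10 libraries, adjusted over 9 pairs, p of 0.978 for Gsto1 and Gstm1, 0.982 for Gstm1 and Mgst1 and 0.185 for Mgst1 and Gsta4). Below them the levels parted. Gstt1, of the theta class, was at 98.1 ± 24.0 CPM per kb and Gstk1 at 51.2 ± 17.2 CPM per kb. Gsta4 exceeded Gstt1 by 1.18 on the log2 scale of CPM per kb and Gstt1 exceeded Gstk1 by 0.96, each in 10 of 10 libraries (exact paired permutation test, adjusted p 0.00439 each).

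Lower in the order came Gstp1, the pi-class enzyme, at 33.6 ± 9.36 CPM per kb and Gstm2 at 32.8 ± 11.6 CPM per kb, which did not differ beyond their spread (exact paired permutation test, adjusted p 0.978). Gstk1 exceeded Gstp1 by 0.59 on the log2 scale in 9 of 10 libraries (adjusted p 0.0422, same exact test). The step was 0.18 in controls alone (4 of 5 libraries, exact p 0.5) and 1.00 in Glut1-KO libraries alone (5 of 5, exact p 0.0625, the smallest that 5 libraries allow), so the step includes the group difference used in choosing Gstk1. This order turned when the longest transcript was taken as the length, to a difference of -0.25 (exact test, adjusted p 0.325). Gsta3, an alpha-class enzyme known in mice to act on the epoxide of aflatoxin, had 20.7 ± 6.47 CPM per kb, lower than Gstm2 in 10 of 10 libraries. Gstm5 was the lowest at 7.67 ± 3.27 CPM per kb, again in 10 of 10 libraries against Gsta3 (adjusted p 0.00439 for both steps, same exact test). With the longest transcript as the length, Gstm1 was under Mgst1 by -0.59 (exact test, adjusted p 0.0176) and Mgst1 above Gsta4 by 0.86 (exact test, adjusted p 0.0176). The plot of levels per length shows the 10 genes in this order, with a far wider scatter for Gsto1 than for Mgst1.

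**Figure D1:**
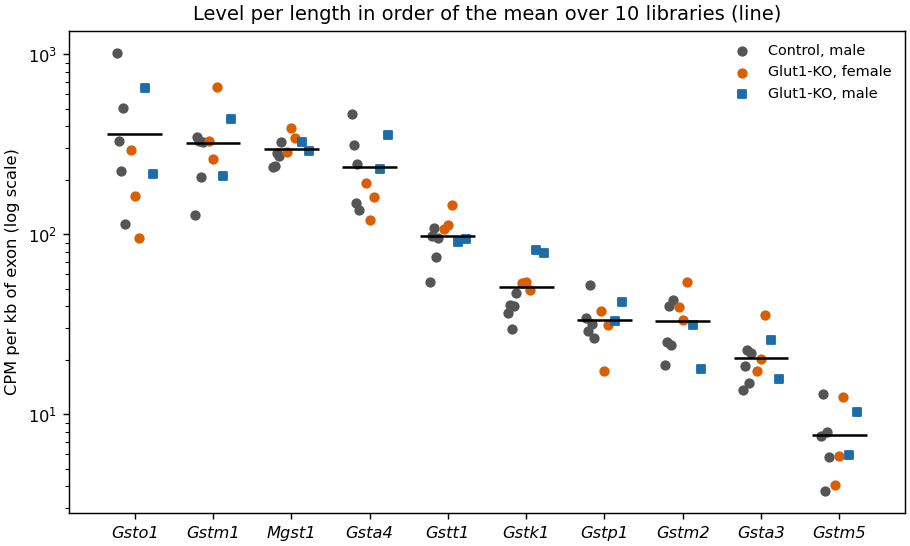
Level per exon length of the 10 genes in each library, in CPM per kb on a log axis, ordered by the mean over 10 libraries (line). Grey points are male controls, orange points female and blue squares male Glut1-KO libraries. Gsto1 has the highest mean, 361 CPM per kb, and Gstm5 the lowest, 7.67 CPM per kb.

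Which enzyme came first differed from library to library. Gstm1 had the highest level per kb of exon in 6 libraries, Gsto1 in 3 and Mgst1 in 1. With the longest transcript as the length, Gstm1 was above Mgst1 in 1 of 10 libraries. The leaders and shares given here therefore depend on the length taken. In control replicate 1, Gsto1 alone made up 50.4% of the summed level of the 10 genes, in control replicate 4 it made up 35.4% and in Glut1-KO replicate 4 it made up 38.6%. In Glut1-KO replicate 3, by contrast, Gsto1 made up 6.00% and Gstm1 41.5%. Mgst1 led in Glut1-KO replicate 2 with 33.0%. Gsto1, Gstm1 and Mgst1 together held between 60.7% and 70.5% of the summed level in each of the 10 libraries, although their own shares differed so widely. Gstk1 held a mean of 3.55% and between 1.81% and 5.04%. The summed level was 1456 ± 338 CPM per kb in controls and 1476 ± 203 CPM per kb in Glut1-KO libraries (SD, n = 5 each), a difference smaller than either SD. The plot of shares shows how Gsto1 and Gstm1 trade places while the total of the leading genes stays within that range.

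**Figure D2:**
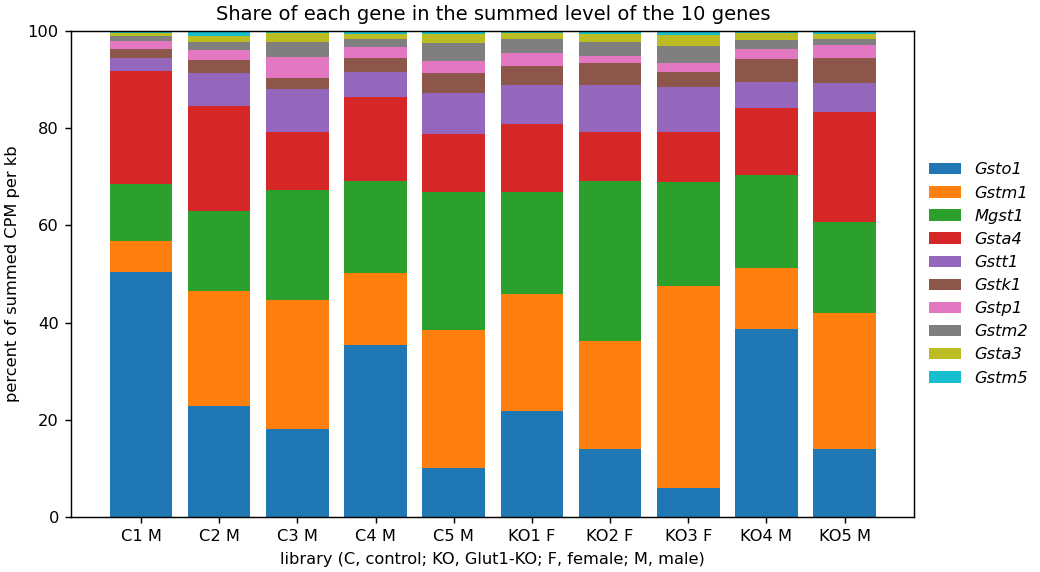
Share of each gene in the summed CPM per kb of exon of the 10 genes, in percent, for the 5 control (C) and 5 Glut1-KO (KO) libraries, with F for female and M for male. Gsto1 takes 50.4% in control replicate 1 and 6.00% in Glut1-KO replicate 3.

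The central comparison asked how these genes differ between tumours labelled Glut1-KO and their controls. Of the 10, 7 had a log2 fold change above 0 and 3 below 0, where 49.3% of all 15922 genes tested lay above 0, and all 10 passed the filter on low counts. Their median log2 fold change was 0.24, beside a median near 0 (-0.0049) over all genes. It was 0.06 without Glut1-KO replicate 3, 0.12 without control replicate 1 and 0.36 without Glut1-KO replicate 5. The number of the 10 genes past an adjusted p of 0.05 was 0 with limma and 0 with edgeR's quasi-likelihood test, where both tools also called 0% of all genes. With limma 1 of the 10, Gstk1, had an unadjusted p under 0.05, as had 7.68% of all genes, and DESeq2 called the same gene, where it called 1.38% of 15538 genes. As Gstk1 led the choice of these genes, nothing is read from those counts.

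Gstk1, which works inside mitochondria and peroxisomes and not in the cytosol, stood at 53.6, 59.6, 43.6, 59.0 and 69.6 CPM in control replicates 1 to 5. The Glut1-KO libraries had 79.1, 79.6, 71.7, 121 and 116 CPM in the same order. Every Glut1-KO library was above every control, and the male pair, replicates 4 and 5, was highest of all. It was the only gene of the 10 whose groups did not overlap, which held for 1.85% of all genes, and for 0.798% with Glut1-KO higher. The means were 57.1 ± 9.49 and 93.3 ± 22.9 CPM (SD, n = 5 each), 1.64-fold higher in Glut1-KO, with a log2 fold change of 0.69 (SE 0.18, 95% interval 0.29 to 1.09). The 2 libraries with the highest Gstk1 were the ones whose Slc2a1 lay within the range of the controls. With those 2 left out, the log2 fold change of Gstk1 was 0.45. In a fit with the Glut1-KO libraries split by sex it was 0.44 (SE 0.14) for the females and 1.06 (SE 0.16) for the males. Gstk1 had between 1765 and 5105 counts in a library.

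The alpha class showed no common direction. Gsta3 was at 59.3, 80.8, 98.9, 65.2 and 94.7 CPM in the controls, replicates 1 to 5, and at 75.4, 87.9, 155, 112 and 68.5 CPM in the Glut1-KO libraries. Glut1-KO replicates 3 and 4 exceeded all controls while the other 3 fell among them, and the log2 fold change was 0.28 (SE 0.23, 95% interval -0.23 to 0.80), or 0.11 without Glut1-KO replicate 3 and 0.19 without control replicate 1. For the male Glut1-KO pair it was 0.16 (SE 0.32) and for the females 0.37 (SE 0.27). Gsta4 was at 593, 397, 190.2, 310.5 and 172 CPM in controls and at 244, 152, 205, 292 and 450.0 CPM in Glut1-KO libraries. The highest value was in control replicate 1 and the lowest in Glut1-KO replicate 2, with the groups largely overlapping. Its log2 fold change was -0.25 (SE 0.37, 95% interval -1.06 to 0.56), turning to 0.27 (SE 0.45) for the male Glut1-KO pair against the controls and to -0.60 (SE 0.38) for the females. Leaving out single libraries moved it between -0.45 without control replicate 5 and 0.00063 without control replicate 1.

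In the mu class, Gstm1 was at 189, 509.9, 485, 309 and 478 CPM in controls and at 486, 387, 967, 311 and 646 CPM in Glut1-KO libraries. Control replicate 1 was the lowest and Glut1-KO replicate 3 the highest, and 2 Glut1-KO libraries exceeded all controls. The log2 fold change was 0.48 (SE 0.35, 95% interval -0.29 to 1.25), which dropped to 0.23 without control replicate 1 and to 0.25 without Glut1-KO replicate 3. The male Glut1-KO pair gave 0.27 (SE 0.47) and the females 0.62 (SE 0.42). Gstm2, whose promoter held neither motif, was at 31.7, 42.5, 67.4, 40.7 and 72.6 CPM in controls and at 66.4, 56.5, 90.9, 52.6 and 30.03 CPM in Glut1-KO libraries. It spanned both extremes within Glut1-KO, with replicate 3 above and replicate 5 below all controls. Its log2 fold change was 0.20 (SE 0.31), 0.53 (SE 0.30) for the females alone and -0.31 (SE 0.36) for the male pair, and from 0.02 without Glut1-KO replicate 3 to 0.44 without Glut1-KO replicate 5. Gstm5, the least abundant, was at 9.64, 16.6, 4.79, 10.2 and 7.43 CPM in controls and at 5.21, 7.51, 15.9, 7.58 and 13.2 CPM in Glut1-KO libraries, with every Glut1-KO value inside the range of the controls and a log2 fold change of 0.01 (SE 0.38), which took either sign when single libraries were left out, from -0.21 without control replicate 3 to 0.27 without control replicate 2.

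Gsto1 varied most. It was at 2054, 669.8, 457, 1019 and 231 CPM in control replicates 1 to 5 and at 599, 331, 192.3, 1320.4 and 439 CPM in Glut1-KO replicates 1 to 5. High and low libraries occurred in both groups, with a 10.7-fold range over the 10 libraries. The means, 886 ± 715 and 576 ± 442 CPM (SD, n = 5 each), differed by less than either SD, and the log2 fold change was -0.54 (SE 0.61, 95% interval -1.88 to 0.80). It was -0.13 without control replicate 1, -0.22 without Glut1-KO replicate 3, -0.93 without control replicate 5 and -0.93 without Glut1-KO replicate 4. Against the controls it was -1.02 (SE 0.66) for the female Glut1-KO libraries and 0.17 (SE 0.78) for the male pair. Cfap43, on the opposite strand, was highest in control replicate 5 at 14.8 CPM, where Gsto1 was the lowest of the controls.

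Gstp1, known for its action on xenobiotics, was at 53.2, 44.8, 81.1, 49.4 and 41.1 CPM in controls and at 58.1, 26.8, 48.8, 50.9 and 65.4 CPM in Glut1-KO libraries. Apart from Glut1-KO replicate 2, which was lowest, the values of the groups were interleaved, with a log2 fold change of -0.12 (SE 0.25), which ran from -0.23 without Glut1-KO replicate 5 to 0.089 without Glut1-KO replicate 2. The male Glut1-KO pair gave 0.15 (SE 0.32) and the females -0.30 (SE 0.28). Gstt1 was at 82.9, 150.5, 166, 115 and 146 CPM in controls and at 164, 172, 222, 138 and 143 CPM in Glut1-KO libraries. Replicates 2 and 3 of Glut1-KO exceeded all controls, and control replicate 1 was the lowest of all. The log2 fold change was 0.37 (SE 0.20, 95% interval -0.07 to 0.81), and 0.21 without control replicate 1. For the male Glut1-KO pair it was 0.13 (SE 0.25) and for the females 0.52 (SE 0.22). Mgst1, which sits in the membranes of the endoplasmic reticulum and the outer mitochondrial membrane, was at 478, 484, 569.7, 545 and 653 CPM in controls and at 577, 784, 688, 658 and 587 CPM in Glut1-KO libraries. Replicates 2, 3 and 4 of Glut1-KO were above all controls and the other 2 were above 4 of the 5. Its means were 546 ± 71.6 and 659 ± 84.1 CPM (SD, n = 5 each), with 0.27 as the log2 fold change (SE 0.13, 95% interval -0.01 to 0.55). The plots of the 10 genes by library set these values side by side, and the plot of fold changes shows the intervals with the female and male Glut1-KO libraries marked apart.

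**Figure D3:**
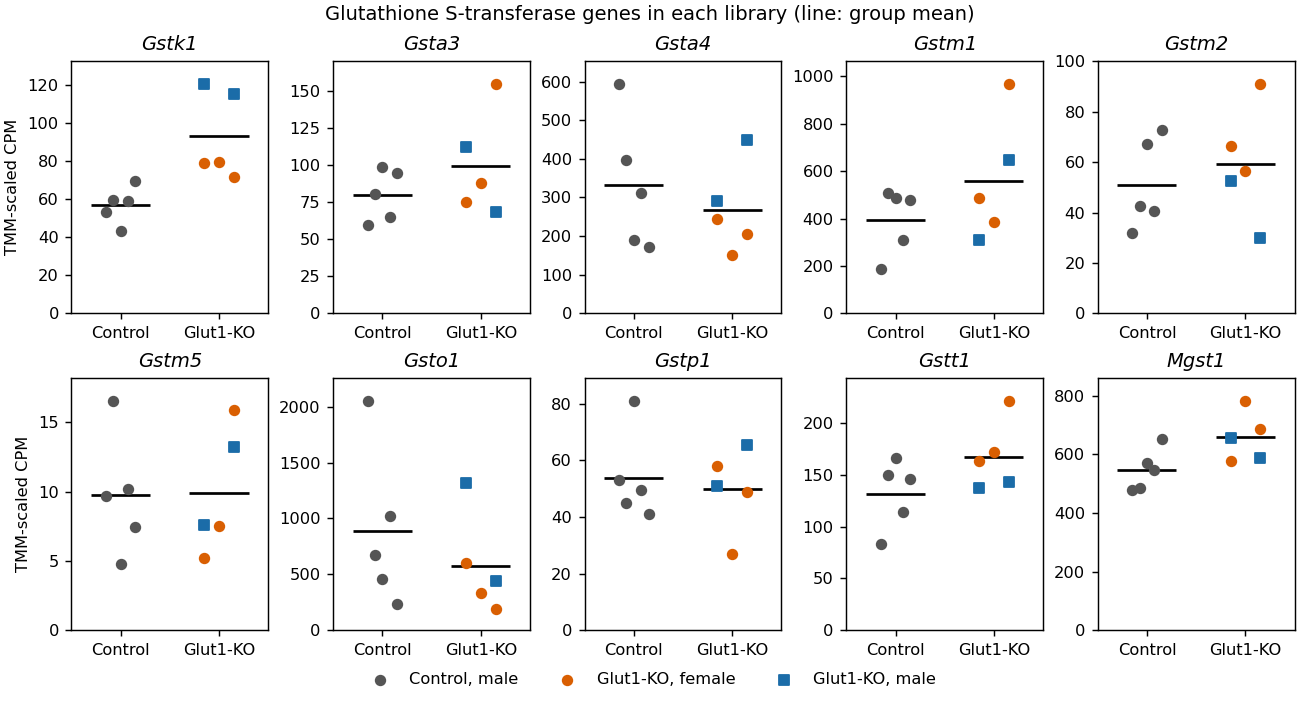
TMM-scaled CPM of each gene in the 5 control and 5 Glut1-KO libraries, each axis starting at 0, with the group mean as a line, male controls in grey, female Glut1-KO in orange and male Glut1-KO as blue squares. The groups separate for Gstk1 alone, with controls from 43.6 to 69.6 CPM and Glut1-KO libraries from 71.7 to 121 CPM.

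**Figure D4:**
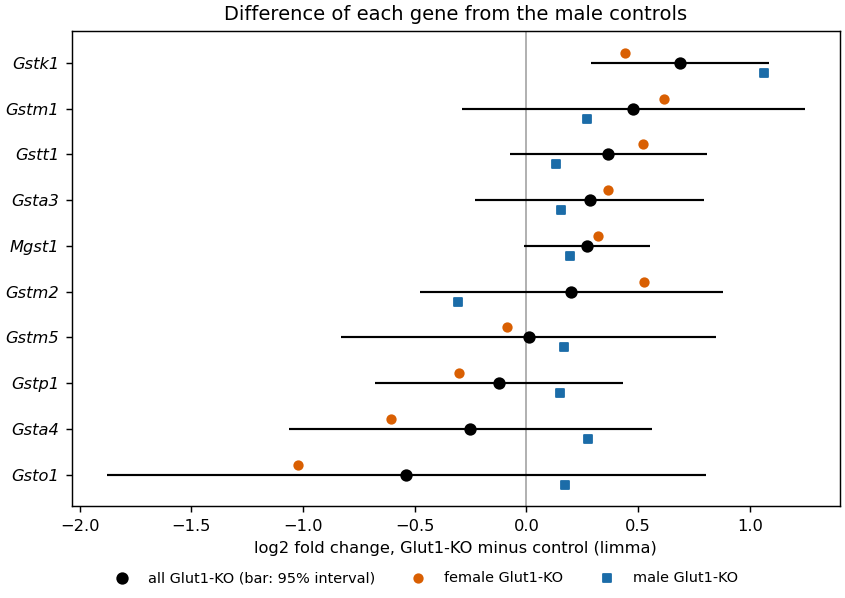
Log2 fold change of each gene, Glut1-KO minus control (limma), as a black point with its 95% interval, n = 5 each. The orange points and blue squares give the 3 female and the 2 male Glut1-KO libraries against the same 5 controls. The highest value is that of Gstk1, 0.69, and the lowest that of Gsto1, -0.54.

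Since the female and male Glut1-KO libraries share a genotype label, they were compared with each other, a contrast that took no part in the choice of the genes. The male pair carries the same further number in the library names, so sex, that number and the difference in Slc2a1 cannot be told apart. Of the 10 genes, 0 passed an adjusted p of 0.05 with limma, which called 8 of 15922 genes (0.0502%), and 0 passed with edgeR, which called 12 genes. At an unadjusted p under 0.05 there was 1 of the 10, beside 18.6% of all genes. This was Gstk1, with 71.7 to 79.6 CPM in the 3 females and 121 and 116 CPM in the 2 males. It was lower in females by a log2 fold change of -0.62 (SE 0.18, 95% interval -1.02 to -0.23, limma p 0.00557, adjusted p 0.141). DESeq2 called 1196 of 15257 genes here, and Gstk1 was 1 of them. From the pathway lists given below it also called Mgst3, Akr1b8, Ggct, Ftl1, Gpx4, Dpep1, Gsta2, Gpx1, Maff, Abcc5 and Bach1. Those lists hold 19, 33, 17, 32 and 17 tested genes, some of them in more than 1 list. Beside 1196 of 15257 genes called over all, nothing is read from these names.

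In 4 of the 10 genes the females and males did not overlap, close to the 40.8% of all genes for which this held with groups of 3 and 2. Gstk1 and Gsta4 were lower in females, and Gstm2 and Gstt1 higher. Gsta4 had 152 to 244 CPM in females and 292 and 450.0 CPM in males, a log2 difference of -0.88 (SE 0.48, limma adjusted p 0.349). Gstm2 had 56.5 to 90.9 CPM in females and 52.6 and 30.03 CPM in males, a log2 difference of 0.84 (SE 0.39, limma adjusted p 0.281). Gstt1 differed by 0.39 (SE 0.27, limma adjusted p 0.454). Gsto1 had the largest difference in size, -1.19 (SE 0.84, limma adjusted p 0.453), but male replicate 5 lay among the females. None of these passed the threshold, and the 95% interval of Gsto1 ran from -3.06 to 0.68.

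Within groups the genes were unlike in how tightly they were held. The pooled SD of log2 CPM within groups was 1.11 for Gsto1, above 96.4% of the 11410 genes with a mean of at least 5 CPM, and 0.18 for Mgst1, above 19.1% of them. Gsta4, Gstm5, Gstm1 and Gstm2 also varied widely, above 88.2%, 87.7%, 86.7% and 83.4% of genes. Gstk1, with an SD of 0.30, stood near the median gene at 0.28.

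These variations were in part shared. Of the 45 pairs of the 10 genes, 5 had a Pearson correlation of log2 CPM over the 10 libraries past an adjusted p of 0.05 (permutation test with 100000 draws, 2-sided, adjusted over 45 pairs), while 0 passed by Spearman's rho. Gsto1 ran opposite to Gstt1 (r -0.83, permutation adjusted p 0.0316, rho -0.76, adjusted p 0.158) and opposite to Gstm1 (r -0.84, permutation adjusted p 0.0316, rho -0.65, adjusted p 0.158). Gstm1 and Gstt1 ran together (r 0.87, permutation adjusted p 0.0316, rho 0.65, adjusted p 0.158). Control replicate 1 had the highest Gsto1 and the lowest Gstm1 and Gstt1, and Glut1-KO replicate 3 had the reverse. Without these extremes, the 2 libraries farthest from the median of Gsto1, r was -0.55 for Gstt1 and -0.58 for Gstm1, and that of Gstm1 with Gstt1 was 0.46 without the 2 farthest in Gstm1, so the size of these 3 relations rests in part on those libraries. Gsta4 ran opposite to Gstm2 (r -0.85, permutation adjusted p 0.0316, rho -0.82, adjusted p 0.158), with r at -0.91 without the 2 libraries farthest in Gsta4 and -0.68 without the 2 farthest in Gstm2. Gsta3 and Gstm2 ran together (r 0.81, permutation adjusted p 0.0368, rho 0.78, adjusted p 0.158), with r at 0.62 and 0.72 in the same check.

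The 5 pairs kept their r when the group means were removed, with values of -0.84, -0.83, 0.85, -0.84 and 0.81 in the order given. The number past the threshold did depend on single libraries. It was 0 without control replicate 1, 2, 3 or 4 or Glut1-KO replicate 3, 2 without control replicate 5 and 3 without Glut1-KO replicate 2. It was 8 without Glut1-KO replicate 4 and 10 without Glut1-KO replicate 5. Sets of libraries that share a further number in their names hold at most 3, too few for values of their own. Gstk1 took part in none of the 5 pairs, its r with the other genes running from -0.17 to 0.47 (lowest permutation adjusted p 0.357). The plots of gene pairs show the opposite course of Gsto1 with Gstt1 and Gstm1, and of Gsta4 with Gstm2.

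**Figure D5:**
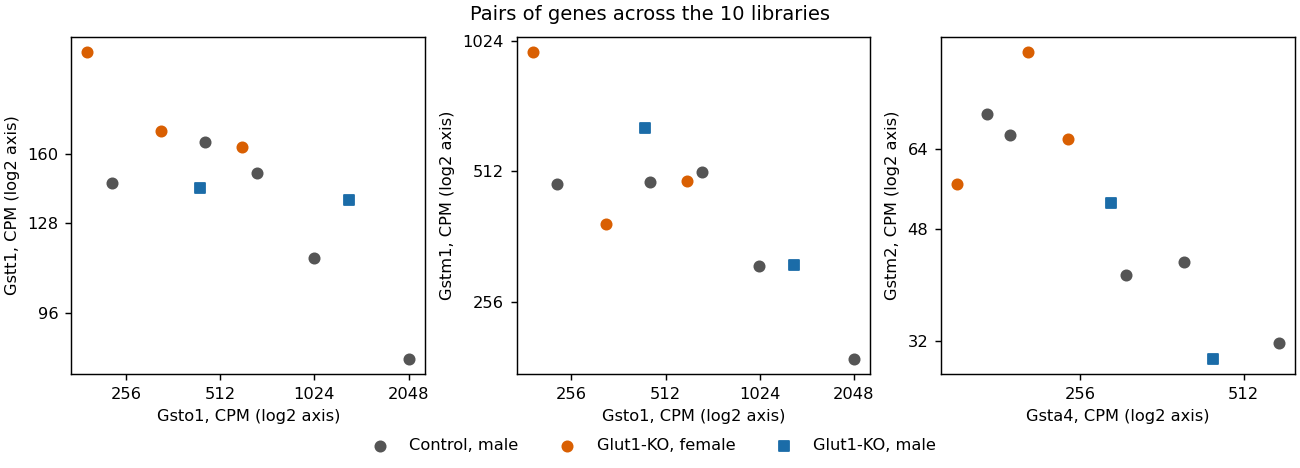
TMM-scaled CPM of Gstt1 against Gsto1, Gstm1 against Gsto1 and Gstm2 against Gsta4, on log2 axes, 1 point per library (grey, male control; orange, female Glut1-KO; blue square, male Glut1-KO). In both plots of Gsto1 the points run from the 192.3 CPM of Gsto1 in Glut1-KO replicate 3 to its 2054 CPM in control replicate 1.

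The marker levels of other cells were set beside these genes as a description. The summed club cell markers had 12433, 2370, 5407, 11574 and 7303 CPM in controls and 9286, 4107, 3098, 6348 and 3609 CPM in Glut1-KO libraries. The 2 leading genes, Scgb1a1 and Hp, made up between 67.9% and 84.9% of each sum, which therefore follows them more than the other 11 markers. For each gene the marker sum with the r of largest size, out of 9 lists, was sought across the 10 libraries, which share depth and scaling. It was that of club cells for Gstm1 (-0.72), Gstt1 (-0.67) and Gsta3 (-0.49), that of alveolar type 1 cells for Gstm2 (0.75), Gsta4 (-0.58) and Mgst1 (0.39), and that of alveolar type 2 cells for Gstm5 (-0.66). For Gsto1 it was the sum of 8 general epithelial markers (0.67), for Gstp1 the erythroid sum (0.70) and for Gstk1 the ciliated sum (-0.39). With the club cell sum, the r of Gsto1 was 0.55 and that of Gstk1 -0.20. The part of cell composition in these relations was not tested.

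Genes that work beside the 10 were read from lists of their pathway. Over all genes tested, 7.68% had an unadjusted limma p under 0.05, DESeq2 called 1.38% and 1.85% had groups that did not overlap, and the lists are small, so that 1 gene more or less moves their share by several percent. Among 19 tested genes of other glutathione S-transferases and MAPEG proteins, 14 had a log2 fold change above 0 and 5 below 0, with a median of 0.11, and 0 were called by limma, edgeR or DESeq2, with 1 at an unadjusted p under 0.05. That gene was Alox5ap, whose product presents arachidonic acid for leukotriene synthesis, at 0.503 CPM in controls and 1.24 CPM in Glut1-KO libraries (log2 fold change 1.33, SE 0.38, limma adjusted p 0.432). The leukocyte markers given above were higher in Glut1-KO for 10 of 12, and their part in this value was not tested. Mgst3 stood at 63.1 ± 13.5 and 94.6 ± 38.3 CPM (log2 fold change 0.52, SE 0.27, limma adjusted p 0.687), and its highest values, 124 and 145 CPM, were in Glut1-KO replicates 4 and 5, as for Gstk1. Against the controls the male pair gave 1.12 and the females 0.12. Gstm4, next to Gstm1 in the mu class, stood at 29.6 ± 12.3 and 40.1 ± 12.95 CPM (log2 fold change 0.46, SE 0.30, limma adjusted p 0.745), with 0.27 without control replicate 1 and 0.30 without Glut1-KO replicate 3.

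Genes that make, recycle or export glutathione had 20 of 33 tested above 0 and 13 below 0, with a median of 0.05. With limma and edgeR 0 were called, 3 had an unadjusted limma p under 0.05, and DESeq2 called 1, the dipeptidase gene Dpep1, where the shares over all genes were 7.68% and 1.38%. Ggct, which splits gamma-glutamyl dipeptides, had a mean of 15.3 ± 4.48 CPM in controls and of 8.49 ± 5.02 CPM in Glut1-KO libraries (log2 fold change -1.04, SE 0.38, limma adjusted p 0.567). It was -1.61 for the female Glut1-KO libraries against the controls and -0.11 for the male pair, whose 12.5 and 15.01 CPM lay among the controls. Oplah, which returns oxoproline to glutamate, stood at 127 ± 36.5 and 176 ± 27.3 CPM (log2 fold change 0.51, SE 0.20, limma adjusted p 0.608). Dpep1 had 0.244 and 4.76 CPM (log2 fold change 3.52, SE 1.33, limma adjusted p 0.587), with 18.03 CPM in Glut1-KO replicate 3 alone, and log2 fold changes of 4.98 for the females and 1.30 for the male pair.

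Of 17 tested peroxidase, reductase and glutaredoxin genes, 13 were above 0 and 4 below 0, with a median of 0.07, and 0 were called by limma, edgeR or DESeq2 or had an unadjusted p under 0.05. The smallest p was that of Adh5, which oxidises the glutathione adduct of formaldehyde (log2 fold change 0.26, SE 0.12, limma adjusted p 0.66), followed by Gpx7 (0.47, SE 0.43, limma adjusted p 0.814) and Gpx4 (0.23, SE 0.25, limma adjusted p 0.848). For the male pair Gpx7 was at 1.07 and Gpx4 at 0.77, and for the females at 0.097 and -0.12. Single libraries moved both, Gpx7 to 0.89 without control replicate 2 and to 0.27 without control replicate 5, and Gpx4 to 0.067 without Glut1-KO replicate 5. Regulators and targets of NRF2 were evenly split, 16 above 0 and 16 below 0 of 32 tested, with a median of -0.0027, 0 called by limma or edgeR, 1 with an unadjusted p under 0.05 and 1 called by DESeq2. That gene was Mafk, a small Maf partner of NRF2 at the antioxidant response element, with 53.1 ± 2.95 CPM in controls and 34.7 ± 7.36 CPM in Glut1-KO libraries (log2 fold change -0.64, SE 0.15, limma adjusted p 0.351) and no overlap between the groups, as for 1.85% of all genes. Such a single gene among 32 is no more than the share over all genes gives for an unadjusted p. For the DESeq2 call and the lack of overlap it is above the shares of 1.38% and 1.85%, in a list where 1 gene decides this. Mafg had a log2 fold change of -0.24 (SE 0.12, limma adjusted p 0.686), with -0.37 for the male pair and -0.15 for the females. The ferritin light chain gene Ftl1 had one of 0.37 (SE 0.19, limma adjusted p 0.696), with 0.76 for the male pair, 0.11 for the females and 0.23 without Glut1-KO replicate 5.

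The enzymes that act before the transferases in club cells had 10 of 17 tested above 0 and 7 below 0, with a median of 0.34 and 2 at an unadjusted p under 0.05, beside 7.68% of all genes. With limma, edgeR and DESeq2 0 were called. The P450 gene Cyp2b10 was at 41.0 ± 14.9 CPM in controls and 10.5 ± 9.59 CPM in Glut1-KO libraries (log2 fold change -2.53, SE 0.60, limma adjusted p 0.351). Cyp4b1, a further P450 gene of the airway, was at 22.3 ± 8.96 and 9.74 ± 8.97 CPM (log2 fold change -1.52, SE 0.59, limma adjusted p 0.593). Adh1, an alcohol dehydrogenase, had a log2 fold change of 1.12 (SE 0.54, limma adjusted p 0.677), and of 0.70 without control replicate 3. Of the 13 club cell markers, 10 were lower in Glut1-KO than in control libraries, while the ranges of their sums given above overlapped. The marker list and this list share at least Cyp2f2, whose log2 fold change of -0.45 is also the median of the markers. The part of the markers in these values was not tested.

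Finally, genes whose course was most like that of Gstk1 were sought among 11409 genes by the Pearson correlation of log2 CPM over the 10 libraries, after the group means were subtracted. Ndnf had the highest r, 0.97, followed by Eif3c at 0.95 and by Pik3cb, Sbf2 and Pias1 at 0.94 each. Unlike Gstk1, they had log2 fold changes between the groups of -0.41, 0.10, 0.01, -0.12 and 0.04 in that order. These values describe 10 libraries that share depth and scaling, and no p is given for them.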

How the data were processed

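Polyadenylated RNA of the CD45- fraction of lung tumours was sequenced as single-end reads of 85 nt from stranded TruSeq libraries in 10 samples. The submitters' processing notes name bcl2fastq 2.17, cutadapt 1.4.2, HISAT2, featureCounts 1.4.4, edgeR and mm10. The deposited counts are raw reads per Ensembl gene, with no normalization by the authors, for 39017 genes, and the 10 columns of the combined table equalled the 10 single-library files. The strand setting and the annotation release are not given in the sources used here, and 96.4% of gene identifiers were found in GENCODE M21. A further table of log2 values was not used here. Samples were grouped by their labels.

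In R 4.3.3, genes were kept by filterByExpr of edgeR 4.0.16 (minimum count 10, minimum total 15), which left 15922. After TMM scaling, voom (prior count 0.5) gave the values for limma 3.58.1, whose model held the group alone. Benjamini-Hochberg adjustment ran over all genes, and 0.05 was the threshold. A fit with the Glut1-KO libraries split by sex gave the female and male contrast. The study also used TMM, voom and limma, with a filter on TPM instead. DESeq2 1.42.0 and edgeR's quasi-likelihood test were alternatives, beside library totals, other filters, sex as a covariate, subsets by sex, blocks and leaving out each library. Neighbours in the order of level were compared by exact sign flips (1024 assignments) and pairs of genes by permutation, in scipy 1.17.1. The pairs were added after the data were seen.

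The genes and all lists were chosen with earlier results of these data known. In each pathway list the 3 genes with the smallest unadjusted p were named, and the 5 most like Gstk1 among genes with at least 5 CPM. No label says that libraries come from separate animals, so p-values measure the spread between these libraries, which may in part be technical. The fits were tested on simulated data. Same-numbered replicates did not deviate together, so the main fit has no block.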

Additional observations from a re-analysis of the deposited data

Results flagged for a closer look

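In groups of 5 libraries, a value far from the other 4 was sought by Dixon's ratio, the gap to the nearest value over the range of the group, with a limit of 0.71. Over the 10 transferase genes, Slc2a1, the 15 named pathway genes and the summed level of the 10 per kb, 54 groups were compared, of which chance gives about 2.7 past the limit. The ratio was past it in 2 groups, and in none of the 10 transferase genes. Dpep1, a membrane dipeptidase that acts on the breakdown products of glutathione, had 18.03 CPM in Glut1-KO replicate 3, where the other Glut1-KO libraries had 0.317 to 3.78 CPM (ratio 0.805). Gpx7, a peroxidase of the endoplasmic reticulum, reached 11.4 CPM in control replicate 2, and the remaining 4 controls ran from 2.36 to 4.15 CPM (ratio 0.802). Control replicate 2 also had the highest Gstm5 of all libraries, 16.6 CPM, and Glut1-KO replicate 3 the highest Gstm1, 967 CPM.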

How the results depend on the processing

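Of 709 values recomputed under other settings, 680 were labelled as unchanged. For this, a fold change had to keep its direction and side of the threshold, or stay within the spread of the libraries. A count had to be equal or close in ratio, and many counts were 0 in the reported fit and stayed 0. For Glut1-KO against control, the count of genes past the threshold, 0 in the reported fit, was 215 with DESeq2, 3 with sex as a covariate, 1 with male libraries only, 9 with female Glut1-KO libraries against the controls, and from 0 to 1 when single libraries were left out (1 without control replicate 3). DESeq2 also called 1 of the 10 transferase genes, Gstk1, 1 of the synthesis, salvage and export genes, Dpep1 (log2 fold change 4.29), and 1 of the NRF2 genes, Mafk (-0.61). Between female and male Glut1-KO libraries it called 1196 genes and 1 of the 10, Gstk1, where limma called from 6 to 10 genes and 0 of the 10 when a library was left out. The log2 fold change of Gstk1 was 1.06 with sex as a covariate and 1.06 with males only. As all controls were male, both fits in effect compare the 2 male Glut1-KO libraries with the controls, and they are not separate evidence. Gstk1 was at 0.45 for the female Glut1-KO libraries against the male controls and at 0.59 to 0.78 without single libraries. Slc2a1 turned to 0.061 with sex as a covariate and to 0.060 with males only. Gpx4 turned to -0.12 for the female Glut1-KO libraries against the male controls. The median of the 10 genes ran from 0.06 to 0.36 without single libraries.

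Over 20 alternatives, Gstk1, Gsta3, Gstm1, Gstt1 and Mgst1 were above 0 in all 20. Gstm2 was above 0 in 18 and Gstm5 in 15, and below 0 were Gsto1 in 18, Gsta4 in 17 and Gstp1 in 16. The alternatives reuse the same libraries and the contrast on which the genes were selected, so a kept sign is a description and supports nothing further. Those with sex as a covariate and with males only estimate the same difference. Of the 9 neighbouring pairs of levels, 5 in the reported test, 0 passed in controls only and 0 in Glut1-KO libraries only, where 5 libraries allow no p below 0.0625 by the exact test. Of the 45 gene pairs, 8 were past the threshold with library totals in place of TMM, and from 0 to 10 when single libraries were left out. The cause of these shifts was not tested.

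With the replicate number as a block, 0 genes passed and the log2 fold change of Gstk1 was 0.69. The deviations of same-numbered libraries from their group means had correlations of 0.0652, -0.0517, 0.0723, 0.238 and -0.0832, and only number 4 correlated best with its own number, so the numbers do not pair the samples. Depth limits Gstm5 the most, with 194 counts in its lowest library.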
